A study of Mus musculus with 6 samples.

Results

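The genes described here are 4 caspase genes, Casp2, Casp6, Casp8 and Casp9, and Apaf1, which encodes the scaffold on which caspase-9 is activated. They were chosen by name, with earlier results of these data known. Every probe set (a set of short oligonucleotides on the array that reads 1 transcript) with one of these as its single gene symbol was taken. This gave 9 probe sets of 45101, for 5 of 18194 genes named by the array's annotation table. The cells were 27H10, as the series title names them (27H in the sample titles), a line of mouse embryonic stem cells that lack Dicer, the enzyme that cuts microRNA precursors into mature microRNAs, and they were kept undifferentiated. In 3 samples they had been transfected with siRL, an siRNA against Renilla luciferase, which serves as the control, and in 3 samples with synthetic mimics (Dharmacon) of the miR-290 cluster, microRNAs that embryonic stem cells normally make. Total RNA was examined 24 h later on 1 Affymetrix array per sample. Both groups carry the Dicer deletion, so the control stands for cells without their own mature microRNAs and not for normal embryonic stem cells. The labels do not name the single mimics in the mix or say whether the line is 1 clone. Nor do they say whether replicates were separate cultures, and if they were not, the p-values reflect technical spread alone.

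Caspases are proteases that are made as inactive precursors and cut one another and other proteins once a cell is committed to die. Initiator caspases are activated on scaffolds: caspase-9 on the apoptosome, built from Apaf1 and cytochrome c released from mitochondria, caspase-8 at death receptors through the adaptor Fadd, and caspase-2 on the PIDDosome, which Pidd1 and Cradd form. Executioner caspases such as caspase-6 then cut structural proteins, among them the lamins of the nucleus. Transcript levels say nothing of the cut, active forms. MicroRNAs lower the level or translation of transcripts that pair with their seed, bases 2 to 8 of the mature strand.

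The labels name the miR-290 cluster and not the single mimics, so which of its mature strands were in the mix is not known here. RefSeq lists 13 mature strands of the cluster, and only the 3p strands are printed below, the 5p strands being left out. RefSeq (GRCm38.p6) gave a 3p mature strand for 6 of 7 hairpin genes of the cluster on the plus strand of chromosome 7, Mir292 being the exception, between positions 3218674 and 3220837. They are written 5′ to 3′ with the seed in capitals.
mmu-miR-291a-3p: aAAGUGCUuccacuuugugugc
mmu-miR-294-3p: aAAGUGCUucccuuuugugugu
mmu-miR-295-3p: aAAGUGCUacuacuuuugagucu
mmu-miR-290a-3p: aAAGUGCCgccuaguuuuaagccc
mmu-miR-291b-3p: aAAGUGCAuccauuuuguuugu
mmu-miR-293-3p: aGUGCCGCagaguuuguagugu
The first 3 share 1 seed, the next 2 have related seeds, and miR-293-3p has a seed of its own. Across the 6 strands, 5 hold AAGUGC within their first bases. No transcript sequence was searched for matches to these seeds.

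The arrays had median intensities between 41.7 and 44.9 and 3′ to 5′ signal ratios of the control probe sets from 1.27 to 1.43 (actin) and from 0.794 to 0.813 (Gapdh). Each array has the same trimmed mean, 500, as global scaling gives, so like medians say little about the arrays. All 10 embryonic stem cell markers examined, Pou5f1, Nanog and Sox2 among them, had intensities of at least 3995 on every array. Of these 10, 0 passed limma's test, 2 were higher at an unadjusted p under 0.05, and 2, Esrrb and Utf1, were higher with the level-dependent robust prior described below (limma adjusted p = 0.0158 and 0.0317). Of all genes tested, 14.5% were lower and 9.99% higher at that unadjusted p, and 9.43% and 6.20% with that prior. In 5 of the 10 stem cell markers all mimic values lay above all control values, where 13.8% of tested probe sets did. In 0 did they all lie below, where 15.5% did. The summed level of the stem cell markers was 114742 to 124146 in the control samples and 122925 to 129173 in the mimic samples. Of 10 fibroblast genes, 6 were bright enough to test and 0 passed limma's test, with 1 lower and 1 higher at an unadjusted p under 0.05 and 0 called with the robust prior. The summed level of the 10 was 881 to 928 in the control samples and 877 to 1140 in the mimic samples, none was at 0, and Col1a1, Col1a2, Col3a1 and Postn gave no more than 32.2 on any array. In 2 of the 10, Dcn and the untested Col1a1, all mimic values lay below all control values, and in 1, Pdgfrb, above. Of 10 tested markers of differentiated lineages, 1, Sox1, was lower at an adjusted p under 0.05 in limma, a call that the robust prior did not keep (limma adjusted p = 0.0569). The summed level of the 11 matched markers was 1118 to 1302 in the control samples and 1015 to 1235 in the mimic samples. In 2 of the 11, Sox1 and Nes, all mimic values lay below all control values, and in 0 above. The part of these cells in the results below was not tested, and in such bulk RNA fewer cells of a type and less RNA per cell cannot be told apart.

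Casp2 fell by more than 2-fold, and it was the 1 member that passed the test. Intensities, which are linear and in arbitrary units, were compared on the log2 scale with limma over the 29167 probe sets whose mean log2 reached 4, and a change was called at a Benjamini-Hochberg adjusted p under 0.05. Of the 9 member probe sets 7 passed that filter. Among these, 1 was lower, where 0.946% of all tested probe sets were, and 0 were higher, where 0.343% were. At an unadjusted p under 0.05 in limma, 3 member probe sets were lower and 0 were higher. Of all 29167 tested probe sets, 3372 were lower and 2476 were higher at that p, together 20.1%. In 4 of the 7, those of Casp2, Casp8 and Apaf1, all mimic values lay below all control values, as they did for 15.5% of tested probe sets. In none did they all lie above, where 13.8% did. Because the members were chosen with earlier results of these data known, these shares give a background and do not test them.

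**Figure D1:**
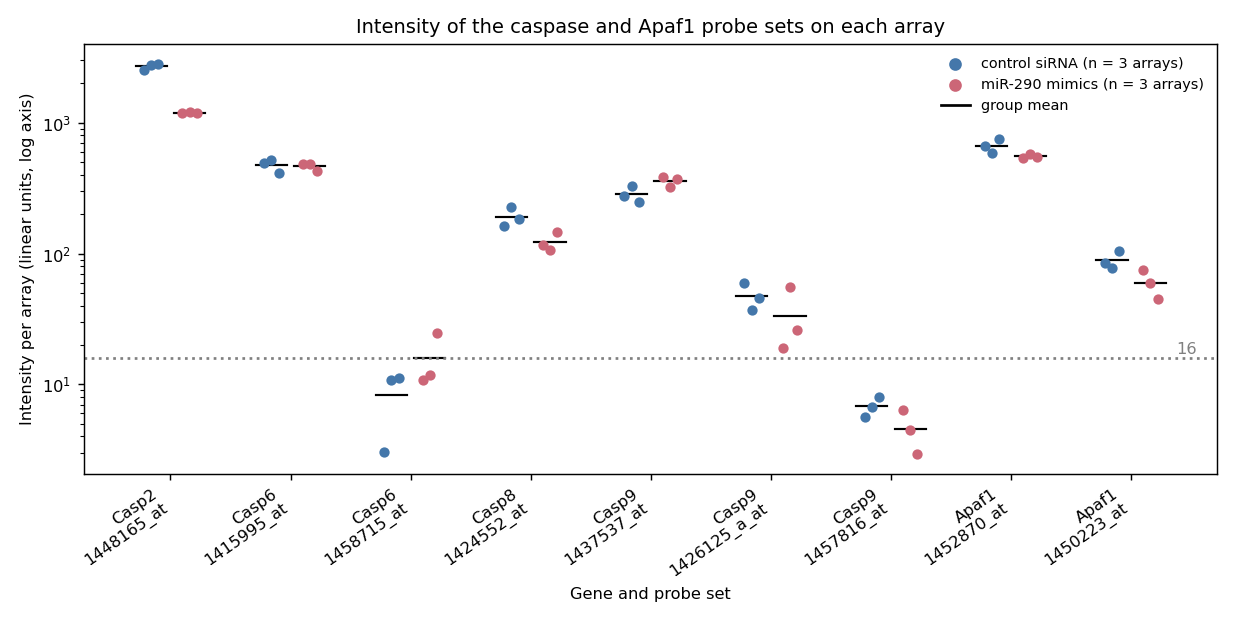
Intensity of each of the 9 member probe sets on each of the 6 arrays, on a log axis, with points for arrays and lines for group means (control siRNA and miR-290 mimics, 3 arrays each). The mimic arrays of Casp2 sit between 1182 and 1216, below all control arrays, and both a Casp6 and a Casp9 probe set lie mostly under the dotted line at an intensity of 16.

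Casp2 (Entrez gene 12366) encodes an initiator caspase that is known for responses to DNA damage and to failed cell division. Its single probe set, 1448165_at, gave 2546, 2774 and 2834 in the 3 control samples and 1182, 1216 and 1182 in the 3 mimic samples. The groups did not overlap, the lowest control value was more than 2-fold above the highest mimic value, and the mimic values were closer together than the control values. The means were 2718 ± 152 and 1193 ± 19.8 (SD, n = 3 each), which is 2.28-fold lower with the mimics. The log2 difference was −1.19 ± 0.076 SE, with a 95% interval from −1.38 to −0.99 and a limma adjusted p of 0.0231. Among all 29167 tested probe sets, 526 (1.80%) had a lower log2 difference, and by p-value Casp2 ranked 13.

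The size of the Casp2 difference depended little on the setting and its call depended more. Over 21 alternatives the log2 difference lay between −1.23 and −1.14, and 13 of them kept the adjusted p under 0.05, 1 of which was chosen after seeing the data. When any 1 of the 6 arrays was left out, the limma adjusted p was 0.0991 to 0.135, in settings that called 0 lower probe sets over the whole array, and with no filter on low values it was 0.104. With the replicate number fitted as a block it was 0.208, the highest of the 21. With limma's prior variance fitted as a robust trend against signal level (the level-dependent robust prior), the limma adjusted p was 2.13e-06, and it was between 1.17e-05 and 4.70e-05 with 1 array left out. That setting called 6.56% of tested probe sets lower and 4.73% higher.

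Casp8 (Entrez gene 12370), the initiator caspase of death receptors, was lower in every mimic sample but did not pass. Its single probe set, 1424552_at, gave 162, 227 and 184 in the control samples and 115, 107 and 147 in the mimic samples. The groups did not overlap, and the gap between them, from 147 to 162, was smaller than the spread within either. The log2 difference was −0.64 ± 0.18 SE (n = 3 each), with a 95% interval from −1.10 to −0.18 and a limma adjusted p of 0.146. With the level-dependent robust prior the limma adjusted p was 0.0536, and it was 0.0414, with a log2 difference of −0.77, once mimic replicate 3, the highest of the mimic samples, was left out. This was the 1 alternative of 20 in which Casp8 passed.

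Apaf1 (Entrez gene 11783) was read by a pair of probe sets, both lower in every mimic sample and neither past the test. The brighter, 1452870_at, gave 667, 588 and 746 in the control samples and 539, 578 and 551 in the mimic samples. Its groups were separated only narrowly, by the values 588 and 578. The log2 difference was −0.26 ± 0.11 SE (n = 3 each), with a 95% interval from −0.53 to 0.02 and a limma adjusted p of 0.279. The dimmer, 1450223_at, gave 84.6, 77.8 and 104.9 against 74.7, 59.3 and 45.3. Here too the closest values, 77.8 and 74.7, nearly met. Its log2 difference was −0.59 ± 0.22 SE, with a limma adjusted p of 0.228. Under none of their alternatives did either Apaf1 probe set pass, and the log2 difference stayed below 0 throughout, from −0.34 to −0.17 and from −0.77 to −0.41.

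Casp9 (Entrez gene 12371), the initiator caspase that Apaf1 activates, had 3 probe sets, of which the tested pair differed in sign. The brightest, 1437537_at, gave 275, 328 and 247 in the control samples and 382, 321 and 374 in the mimic samples. Of the mimic values, 2 lay above all controls and 321 lay inside the control range. The log2 difference was 0.35 ± 0.14 SE (n = 3 each), with a 95% interval from −0.003 to 0.70 and a limma adjusted p of 0.253. The second, 1426125_a_at, gave 59.1, 37.3 and 45.9 against 19.0, 55.3 and 25.9, so that mimic replicate 2 was as high as the controls. Its log2 difference was −0.63 ± 0.44 SE, with an interval from −1.73 to 0.47 and a limma adjusted p of 0.476. The third, 1457816_at, was below the filter at 2.94 to 7.96 and was not tested. Under their alternatives the brightest stayed above 0, from 0.25 to 0.46, and the second below 0, from −1.07 to −0.30, and neither passed. No direction can be given for Casp9 from these probe sets.

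Casp6 (Entrez gene 12368), an executioner caspase that cuts lamin A, did not differ detectably. Its brighter probe set, 1415995_at, gave 492, 523 and 415 in the control samples and 482, 487 and 426 in the mimic samples. The ranges lay on top of each other, with the mimic values inside the control range. The log2 difference was −0.03 ± 0.12 SE (n = 3 each) with a limma adjusted p of 0.911, and its 95% interval, −0.33 to 0.27, leaves room for a change of that size either way. With median centring of the arrays and with quantile normalization the difference was above 0, at 0.02 and 0.04. The other probe set, 1458715_at, was below the filter at 3.05 to 24.9 and was not tested.

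**Figure D2:**
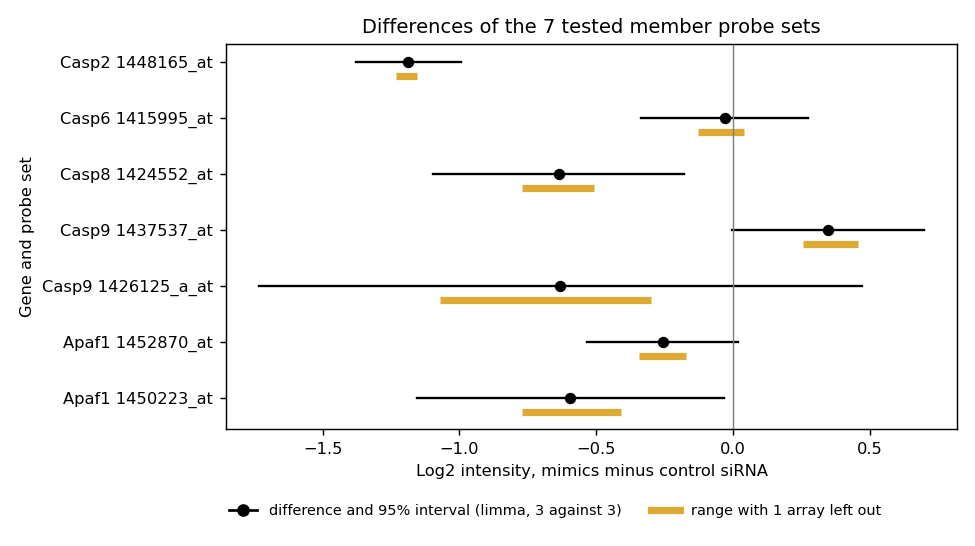
Log2 difference, mimics minus control siRNA, of the 7 tested member probe sets, with the 95% interval from limma (black) and the range of the difference when 1 array is left out (yellow). The Casp2 interval, −1.38 to −0.99, lies apart from those of Casp6, Casp9 1437537_at and Apaf1 1452870_at and overlaps those of Casp8 (−1.10 to −0.18), Casp9 1426125_a_at and Apaf1 1450223_at.

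The fall of Casp2 was set against the change of each other member, taking the brightest probe set of each and the difference of log2 intensities within an array. The Casp2 change was lower than that of Casp8 by a log2 difference of −0.55, of Apaf1 by −0.93, of Casp6 by −1.16 and of Casp9 by −1.53. In all 4 comparisons the 3 mimic arrays lay apart from the 3 control arrays. The exact permutation p was 0.1 for each (2-sided, and 0.1 after adjustment over the 4), which is the smallest that 3 arrays against 3 can give, so this test cannot pass 0.05. All 4 comparisons use the same Casp2 values, so they are not independent. Casp2 was also singled out by its fall on these same arrays, so the separation says little beyond that fall.

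The 5 genes with profiles closest to Casp2 were Mbd1, Xaf1, Pfn2, Sfmbt1 and Pafah1b2. Closeness was the root mean square difference of the log2 intensities over the 6 arrays, each gene centred on its own mean, and it was 0.0443, 0.0461, 0.0516, 0.0560 and 0.0594. All 5 had a lower level with the mimics, by log2 differences between −1.22 (Xaf1) and −1.11 (Pfn2), and limma adjusted p-values from 0.0196 to 0.0287. The methyl-CpG-binding protein gene Mbd1 gave 511, 570.3 and 612 in the control samples and 240, 261 and 256 in the mimic samples. As with Casp2, control replicate 1 was the lowest control. With 2 groups of 3 arrays, any gene with a fall of this size and little spread comes out close to Casp2.

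**Figure D3:**
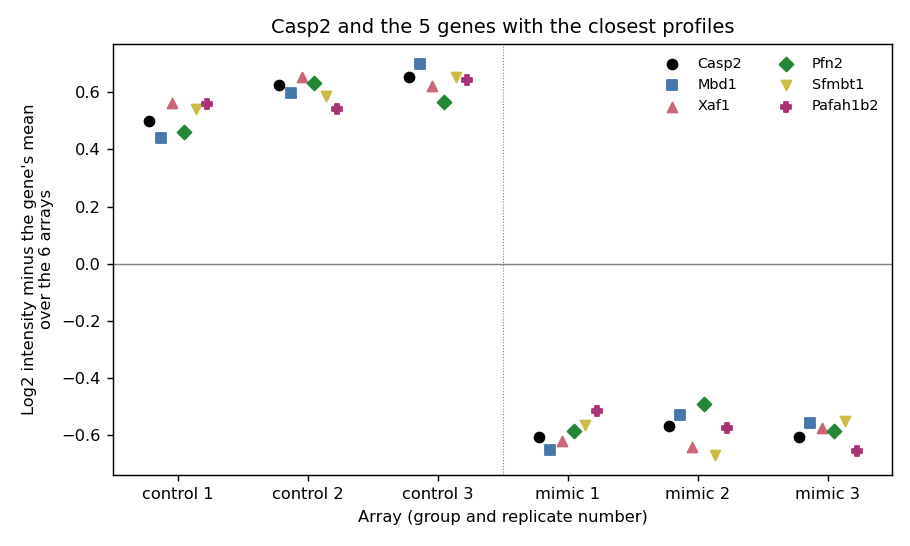
Log2 intensity on each of the 6 arrays minus the gene's mean over them, for Casp2 and the 5 genes with the closest profiles (1 symbol per gene). All 6 genes are above 0 on the 3 control arrays and below 0 on the 3 mimic arrays, and Casp2 runs from 0.50 to 0.65 on the former and from −0.61 to −0.57 on the latter.

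The rest of the cell death pathway was followed through 8 lists of 79 symbols, in which Lrdd is an older name of Pidd1. By the brightest probe set of each gene 60 were tested, 8 were below the filter and 11 were not analysed here, because no probe set carried that symbol alone. In limma 1 gene, Xaf1, fell, where 1.38% of 13815 genes did, and 0 rose, where 0.456% did. At an unadjusted p under 0.05 in limma 8 were lower and 6 were higher, 13.3% and 10.0% of the 60, against 14.5% and 9.99% of all genes. These shares of all genes are also the background of each list below, and at this cut the 60 genes were near it. With the level-dependent robust prior 8 were lower and 4 were higher, 13.3% and 6.67% of the 60, against 9.43% and 6.20% of all genes. The median log2 difference was −0.02 for the 60 genes and −0.01 for all genes, and 32 of the 60 differences were below 0.

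**Figure D4:**
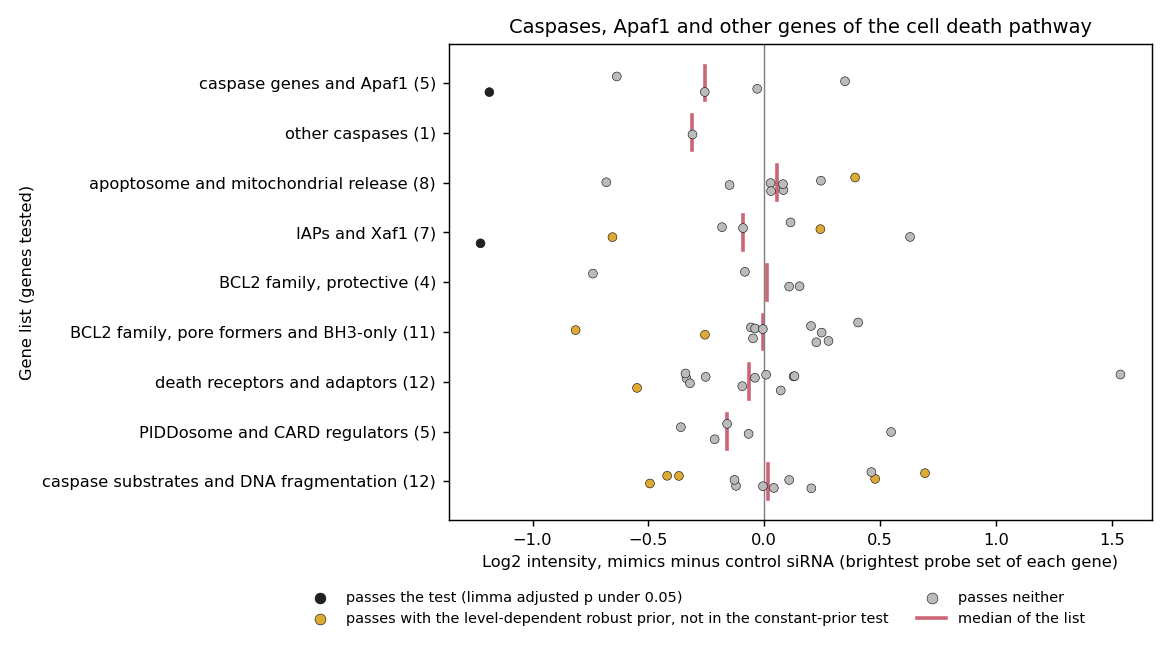
Log2 difference, mimics minus control siRNA, of each tested gene through its brightest probe set, for the caspase genes and Apaf1 and for 8 lists of the cell death pathway, with red lines for list medians. Casp2 and Xaf1 (black) pass the limma test, 11 further genes (yellow) pass with the level-dependent robust prior but not with the constant prior at the same filter, and the list medians lie between −0.31 and 0.05.

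Of 6 other caspases listed, 2 had no probe set with that symbol alone and were not analysed. Among the 4 others, the skin caspase gene Casp14 was the 1 tested, and it did not pass. It gave 115, 133 and 73.4 in the control samples and 102, 51.1 and 113 in the mimic samples (probe set 1443787_x_at, limma adjusted p = 0.697), and its second probe set was below the filter. The inflammatory caspase genes Casp1 and Casp4 and the caspase gene Casp12 were below the filter. Casp1 gave 0.802 to 7.55 and Casp4 0.691 to 5.05 over the 6 arrays, values that cannot be told from background here. Casp12 gave 1.62 to 26.7 over its pair of probe sets, in which 1 value near 20 or above stood out in each, control replicate 2 in one and mimic replicate 1 in the other.

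On the side of caspase-9, 0 of 8 genes of the apoptosome and of mitochondrial release passed in limma. At an unadjusted p under 0.05 1 was higher and 0 were lower, and with the level-dependent robust prior again 1 was higher, where 9.99% and 6.20% of all genes were. The brightest members were Cycs, the cytochrome c gene, at 25931 ± 612 and 26437 ± 1120 (SD, n = 3 each), and Hspd1, a mitochondrial chaperone gene, at 21210 ± 2026 and 22368 ± 723. Their log2 differences of 0.03 and 0.08 were within the spread of the samples (limma adjusted p = 0.864 and 0.684). The list's median was 0.05.

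Proteins of the IAP family bind and hold back caspases, and Xaf1, an interferon-inducible protein, binds the family member Xiap and opposes it. Of 7 genes tested, Xaf1 fell and 0 rose in limma, with 2 lower and 1 higher at an unadjusted p under 0.05 and the same counts with the level-dependent robust prior (all genes 14.5% and 9.99% unadjusted, 9.43% and 6.20% with that prior). Xaf1 (1443621_at) gave 3974, 4224 and 4134 in the control samples and 1749, 1725 and 1805 in the mimic samples. The groups lay far apart and each was tight. The log2 difference was −1.22 ± 0.069 SE (n = 3 each), with a limma adjusted p of 0.0196, and it too lost its call with any 1 array left out (0.0991 to 0.135) but not with the level-dependent robust prior (2.85e-06 to 1.25e-05). A second, dimmer Xaf1 probe set gave −0.92 and a limma adjusted p of 0.0899. The brightest other genes, Birc5 (survivin, which also acts in mitosis) and Birc6, gave 0.24 and −0.09 on the log2 scale (limma adjusted p = 0.138 and 0.875).

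Of the protective members of the BCL2 family, which keep mitochondria closed, 0 of 4 passed in limma through their brightest probe sets. This held also at an unadjusted p and with the level-dependent robust prior. Of Mcl1, only the brightest probe set is given here, and the dimmer ones, which were lower with the mimics, are described under Other observations. Mcl1 was at 9411 ± 649 and 10466 ± 876, and Bcl2l1, which encodes Bcl-xL, at 697 ± 93.2 and 654 ± 25.6 (SD over 3 arrays; adjusted p of 0.462 and 0.744 in limma). Of the pore formers and BH3-only members, which open mitochondria, 0 of 11 passed in limma. At an unadjusted p under 0.05, which left 14.5% of all genes lower and 9.99% higher, 2 were lower and 1 was higher. The brightest were the BH3-only genes Bcl2l11 (Bim), at 5284 ± 257 and 4423 ± 156, and Bid, which caspase-8 cuts, at 1004 ± 64.0 and 1154 ± 54.6 (limma adjusted p = 0.158 and 0.277). The medians of these 2 lists were 0.01 and −0.01.

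On the side of caspase-8, 0 of 12 death receptor and adaptor genes passed in limma, with 1 lower and 0 higher at an unadjusted p under 0.05 (14.5% and 9.99% of all genes). The brightest were Casp8ap2, whose product binds caspase-8 and also acts in histone transcript processing, at 1941 ± 348 and 2115 ± 305, and the death effector domain gene Dedd at 1074 ± 217 and 850.1 ± 192 (SD over 3 arrays; adjusted p of 0.733 and 0.473 in limma). On the side of caspase-2, 0 of 5 PIDDosome and CARD genes passed in limma, at an unadjusted p or with the level-dependent robust prior. Cradd, the adaptor between caspase-2 and Pidd1, gave 448, 435 and 436 in the control samples and 462, 389 and 410.4 in the mimic samples, and Pidd1 gave 179, 207 and 221 against 222, 128 and 207. In both genes the groups overlapped (log2 differences −0.07 and −0.16, limma adjusted p = 0.718 and 0.75).

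Downstream of the caspases, 0 of 12 genes of caspase substrates and DNA fragmentation passed in limma, with 3 lower and 3 higher at an unadjusted p under 0.05 (14.5% and 9.99% of all genes). The brightest were Parp1, which encodes a DNA repair enzyme that caspases cut, at 6077 ± 137 and 6547 ± 138, and the kinase gene Rock1 at 2202 ± 40.4 and 2538 ± 150 (SD over 3 arrays; adjusted p of 0.432 and 0.232 in limma). Other Rock1 probe sets of similar brightness gave −0.09 and −0.11 on the log2 scale, where the brightest gave 0.20.

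The level-dependent robust prior called 11 genes of these lists beyond Xaf1, which are named here after their values were seen. The pore former gene Bak1 gave 392, 414 and 446 in the control samples and 198, 273 and 247 in the mimic samples. The groups did not overlap (log2 difference −0.81, limma adjusted p = 0.00318 with this prior and 0.0677 without it), and a second Bak1 probe set gave −0.86. The kinase gene Pak2, whose product caspases cut, gave 1394, 1559 and 1469 against 1110, 1111 and 1082 (−0.42, limma adjusted p = 0.00284 with this prior and 0.0712 without it), but its next probe set gave −0.16. Also lower with this prior were Birc3 (−0.66), the death receptor gene Tnfrsf21 (−0.55), the lamin A gene Lmna (−0.49), the actin-severing gelsolin gene Gsn (−0.37) and Bcl2l11 (−0.26), all on the log2 scale. The second brightest Bcl2l11 probe set, 1435448_at, was also lower with this prior, without overlap (−0.39, limma adjusted p = 0.00515). The dimmer ones did not pass with it, at −0.29 (1456006_at), −0.01 (1435449_at) and 0.07 (1426334_a_at). Birc3 and Tnfrsf21 have 2 probe sets each, Lmna 5 and Gsn 6, and only the brightest of each is given here.

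Higher with the same prior were Dffb, the nuclease gene of apoptotic DNA fragmentation (log2 difference 0.69), the lamin gene Lmnb1 (0.48), the mitochondrial protease gene Htra2 (0.39) and Birc5 (0.24). Lmnb1 and Htra2 have 2 probe sets each, of which only the brighter is given here, and Birc5 has 1. Dffb gave 161, 133 and 151 in the control samples and 273, 224 and 225 in the mimic samples, with no overlap. Its second probe set gave 0.33, and the limma adjusted p was 0.0144 with this prior and 0.0712 without it. Of these 11 genes, Bak1, Pak2 and Birc5 kept an adjusted p under 0.05 with this prior whichever array was left out. The other 8 lost it in at least 1 case, at limma adjusted p-values of up to 0.0941.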

How the data were processed

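The authors deposited 1 table of linear intensities, 1 value per probe set and array. The submitters' processing notes name GCRMA, but on each array the mean without the lowest and highest 2% is 500, as global scaling gives, and which step made the values is not given in the sources used here. Depth does not apply, and the number of arrays (3 per group) limits precision. Values were log2-transformed without offset, because they were linear where log2 values had been allowed for. Control probe sets (64) and 15870 probe sets with a mean log2 under 4 were left out. The 29167 others were fitted with limma 3.58.1 in R 4.3.3 (lmFit, eBayes, 2-sided, no covariates, all 6 arrays) with Benjamini-Hochberg adjustment. Each sample's group and number were read from its title.

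Genes were named through the platform's annotation table, in which 34958 probe sets had 1 symbol, 932 had several and 9211 were not listed. The brightest probe set by mean log2 stood for a gene in the lists. The members and lists were chosen with earlier results of these data known. The rule for named genes took every member probe set, all measured other caspases, each list gene past the threshold and, where fewer than 2 passed, up to 2 with the highest mean intensity, and the 5 genes closest in profile to a called member. Alternatives were the level-dependent robust prior, median centring, quantile normalization, an offset of 16, filters at a mean log2 of 6 and 8 or none, a replicate block and leaving out each array. The fits were tested on simulated data. Protein and transcript sequences were not used here.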

Additional observations from a re-analysis of the deposited data

How the results depend on the processing

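Of the tested member probe sets, 1 was lower and 0 were higher with the level-dependent robust prior, median centring, quantile normalization, the offset of 16 and the stricter filters (mean log2 of 6 or 8). With no filter and with the replicate block it was 0 lower (2 at an unadjusted p under 0.05 in limma in each), as it was with any 1 array left out (0 to 0), and with the robust prior and 1 array left out it was 1 to 2. The pathway genes were 1 lower and 0 higher in the main result, 8 and 4 with the robust prior, 7 and 1 with the filter at 6, 7 and 3 with the filter at 8, and 0 lower with no filter, with the replicate block and with 1 array left out. With the robust prior and 1 array left out they were 5 to 8 lower and 2 to 4 higher.

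Over the whole array, limma called 276 lower and 100 higher in the main result, 1914 and 1379 with the robust prior, 103 and 50 with median centring, 442 and 186 with the offset, 1522 and 851 with the filter at 6, and 1800 and 1200 with the filter at 8. With no filter it called 0 and 0 (3152 and 2493 at an unadjusted p under 0.05), with the replicate block 0 and 0 (2994 and 2195), and with 1 array left out 0 lower and 0 to 1 higher. With the robust prior and 1 array left out it called 1186 to 1600 lower and 730 to 1244 higher. The cause of these differences was not tested.

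Same-numbered samples did not deviate together (correlations −0.0061, 0.0123 and 0.0242). The labels do not say that the numbers pair the samples, and these correlations cannot exclude it. With the replicate block the limma adjusted p of Casp2 was 0.208. The block with the robust prior, chosen after seeing the data, gave 1.00e-05 for Casp2, 8 and 4 pathway genes, and 2030 and 1528 probe sets over the array. Casp6, not called in any setting, changed sign with median centring (0.016), quantile normalization (0.041), without control replicate 2 (0.040) and without mimic replicate 3 (0.032), the last 2 also with the robust prior, and its lowest value with 1 array left out was −0.13. Detection calls were not used here, so the lowest intensities have no measured background.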

Other observations

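The probe sets of Mcl1, which encodes a short-lived protective BCL2 family protein, disagreed. The brightest gave a log2 difference of 0.15, while the other 5 lay between −0.27 and −0.09. Of these, 4 were lower with the level-dependent robust prior (limma adjusted p = 0.00499 to 0.0457), and none of the 6 passed without it. Of the 4, 3 (1437527_x_at, 1456243_x_at and 1456381_x_at) carry the _x_ mark of probe sets that may also bind other transcripts, and 1416880_at does not. The last gave 5863, 5618 and 5836 in the control samples and 4813, 4592 and 4921 in the mimic samples, so its groups did not overlap.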
